A study of Mus musculus with 16 samples.

Results

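Zbtb46, Id2, Batf3, Bcl6, Spi1, Klf4, Runx3, Cebpa, Cebpb and Cebpe are transcription factor genes of the dendritic and myeloid lineages, and they were followed across 16 microarrays of mouse bone marrow-derived dendritic cells. The 10 genes were chosen by name, and each was read from the probe set that the array's annotation assigns to that gene alone. All 10 had 1 such probe set and passed a filter on low values, among 10236 genes tested. All cultures came from C57BL/6 marrow and received 10 ng/mL of GM-CSF, a myeloid growth factor, so every group shares it. There were 4 groups of 4 arrays: 450 mOsm/L plus LPS, 290 mOsm/L plus LPS, and then 450 mOsm/L and 290 mOsm/L, both without LPS. At 450 mOsm/L, NaCl was added from day 3, while 290 mOsm/L is the normal medium. All cells were collected on day 7 and plated for 6 h more, without or with 10 ng/mL of LPS, a bacterial cell wall component sensed by Tlr4. The labels give the same 4 mice to every group, so replicates are separate animals.

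Myeloid identity is set by a small set of DNA-binding proteins that act at different steps. PU.1, encoded by Spi1, and the C/EBP proteins open the myeloid programme in progenitors. Other factors then favour one fate: C/EBPε drives the late maturation of granulocytes, Klf4 supports monocytes and some dendritic cells, and Zbtb46, Id2, Batf3 and Bcl6 are tied to conventional dendritic cells. Cultures grown with GM-CSF are mixtures of dendritic-like, macrophage-like and granulocytic cells, and an array reads their summed RNA.

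Values are RMA log2 expression. Array medians ran from 6.78 to 6.93, and 6.83, the median of all values, was the level that a gene had to exceed on at least 4 arrays. The SD of the difference between 2 arrays of a group was 0.128 to 0.223 across the tested genes, against 0.341 to 0.942 for arrays of different groups. The 450 mOsm replicate 4 array was the least like its own group, with a median r of 0.990 across genes. Of 12 conventional dendritic cell markers, Itgax, H2-Aa and Cd74 were high in every group (group means of at least 11.4), while Flt3 lay below 6.83 on every array of the groups other than 290 mOsm with LPS. Kit lay below 6.83 on every array without LPS. Of 9 markers of the cross-presenting dendritic cell subset with a probe set, Xcr1, Itgae, Cd8a and Snx22 were below it on all 16 arrays. Clec9a was below it on every array with LPS (means of 5.15 at 450 mOsm and 6.06 at 290 mOsm). Wdfy4, Ppt1 and Tlr3 of the same list had group means above it throughout, with 7.64 the lowest. Cadm1 lay near it, with means of 6.73 at 450 mOsm and 6.98 at 290 mOsm with LPS. Without LPS its means were 6.93 at 450 mOsm and 7.27 at 290 mOsm. The 17 neutrophil markers averaged 7.67 to 7.89 per array at 450 mOsm with LPS, against 9.76 to 10.2 at 290 mOsm with LPS. Without LPS they averaged 6.96 to 7.10 at 450 mOsm, against 9.60 to 10.1 at 290 mOsm. In such bulk samples, fewer cells of a type and less RNA per cell cannot be told apart.

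The differences asked what salt did to these genes with and without LPS, and what LPS did at each osmolarity. A gene was called at an adjusted p below 0.05 in limma (Benjamini-Hochberg over 10236 genes), and errors beside log2 changes are limma's standard errors with 4 mice per group. LPS moved most of the 10 genes. At 450 mOsm, 6 rose and 2 fell (8 of 10), where 71.8% of all genes were called, 26.4% higher and 45.3% lower. At 290 mOsm 5 rose and 2 fell (7 of 10), where 73.5% were called, 26.4% higher and 47.1% lower. Salt moved fewer: with LPS 3 rose and 2 fell (38.6% of all genes were called, 16.8% higher and 21.8% lower), and without LPS 2 rose and 2 fell (44.3% were called, 20.6% higher and 23.7% lower). Counted in either direction, the calls for LPS and for salt lay near the shares of all genes, while under LPS more of the 10 rose than fell and more of all genes fell than rose. The ranges of the groups did not overlap for 8 of the 10 genes for LPS at 450 mOsm (66.2% of all genes), 6 for LPS at 290 mOsm (69.1%), 5 for salt with LPS (39.4%) and 4 for salt without LPS (36.8%). The salt effects with and without LPS differed for 3 of the 10, 1 higher and 2 lower (21.1% of all genes were called, 10.7% higher and 10.4% lower). Their median LPS change was 0.28 at 450 mOsm and 0.13 at 290 mOsm, against medians of -0.09 and -0.11 over all genes, which cyclic loess moved to 0.03 and 0.02.

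**Figure D1:**
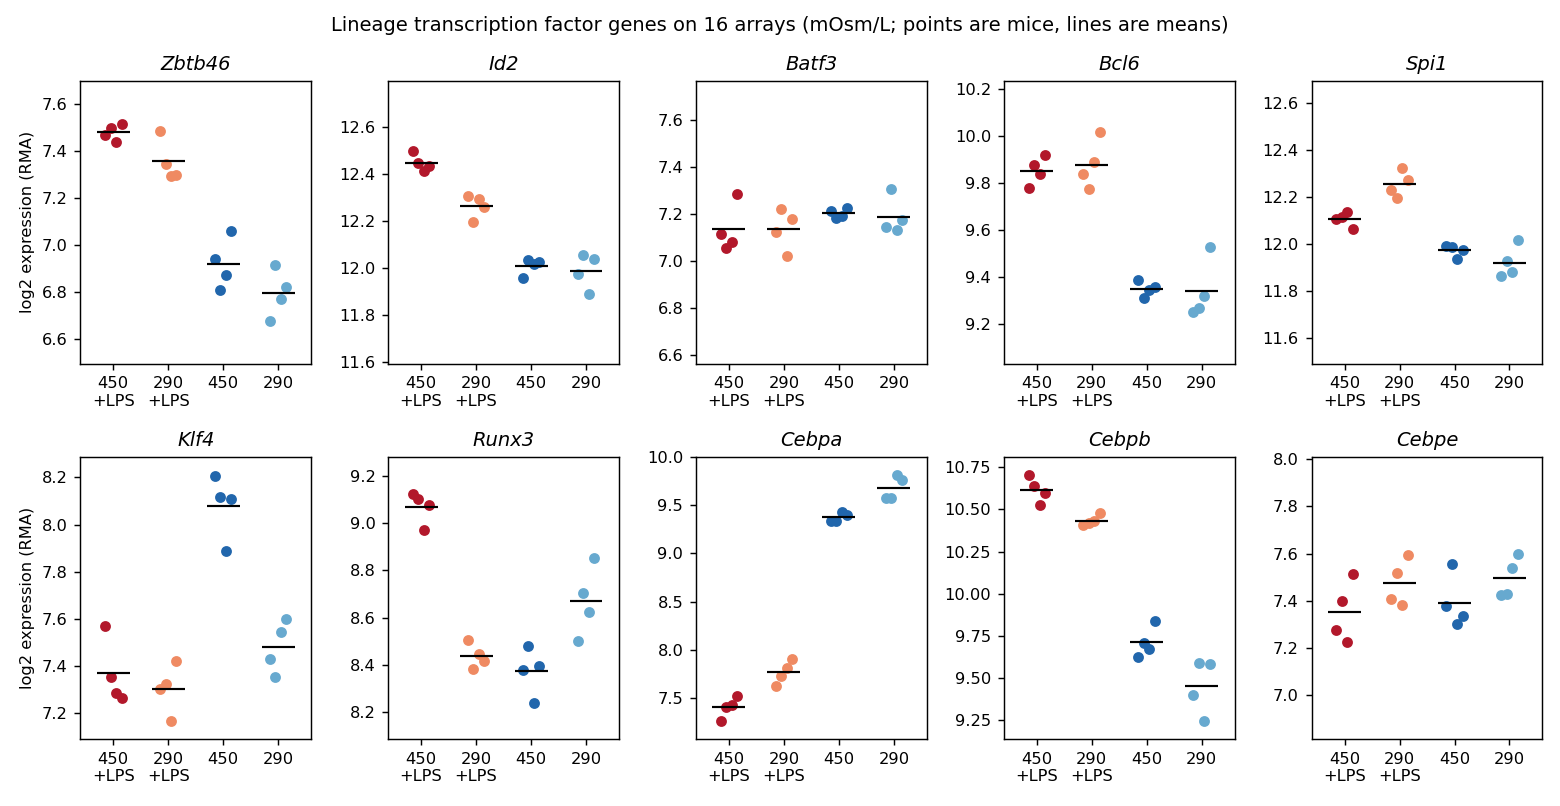
Log2 expression (RMA) of each of the 10 genes on the 16 arrays, by group in mOsm/L with or without LPS; points are mice and lines are group means, and each panel has its own vertical range. Cebpa is low in both LPS groups (7.26 to 7.90), Runx3 is highest at 450 mOsm with LPS (8.97 to 9.13), and Klf4 is highest at 450 mOsm without LPS (7.89 to 8.21).

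Among the C/EBP genes, LPS lowered Cebpa and raised Cebpb. Cebpa encodes the factor that granulocyte-monocyte progenitors need, and Cebpb a relative that inflammatory signals induce. At 450 mOsm, Cebpa read 7.26, 7.40, 7.43 and 7.52 with LPS, against 9.34, 9.34, 9.43 and 9.39 without it. At 290 mOsm it read 7.63, 7.72, 7.81 and 7.90 with LPS, against 9.57, 9.57, 9.81 and 9.76 without it. No array with LPS came near an array without it. The fall was 3.92-fold at 450 mOsm (log2 -1.97 ± 0.07, adjusted p = 3.02e-14 in limma) and 3.76-fold at 290 mOsm (log2 -1.91 ± 0.07, adjusted p = 4.54e-14 in limma). Only 3.43% of all genes moved as far in either direction at 450 mOsm, and 3.56% at 290 mOsm.

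Cebpb took the opposite course. With LPS it read 10.70, 10.64, 10.53 and 10.60 at 450 mOsm, against 9.63, 9.71, 9.67 and 9.84 without LPS. At 290 mOsm it read 10.41, 10.42, 10.43 and 10.48 with LPS, against 9.40, 9.59, 9.25 and 9.58 without LPS. The groups did not overlap at either osmolarity. The rise was 1.87-fold at 450 mOsm (log2 0.91 ± 0.07, adjusted p = 1.39e-09 in limma) and 1.97-fold at 290 mOsm (log2 0.98 ± 0.07, adjusted p = 4.96e-10 in limma).

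Salt shifted the same pair in the same directions as LPS, by less. Cebpa was lower at 450 mOsm than at 290 mOsm with LPS (-0.36 ± 0.07, adjusted p = 0.000557 in limma) and without LPS (-0.30 ± 0.07, adjusted p = 0.00237 in limma), in 4 of 4 mice each time. The 4 groups of Cebpa therefore ranked without any overlap, highest at 290 mOsm without LPS, then at 450 mOsm without LPS, and lower again with LPS, where 450 mOsm was the lowest. Cebpb was higher at 450 mOsm without LPS (0.26 ± 0.07, adjusted p = 0.00701 in limma) and with LPS (0.18 ± 0.07, adjusted p = 0.0463 in limma), and its 4 groups also did not overlap, in the opposite order. The call of Cebpb with LPS was lost when any of 10 of the 16 arrays was left out, with adjusted p from 0.0507 to 0.130; the 6 whose removal kept it were 290 mOsm replicates 2, 3 and 4, 450 mOsm replicates 1 and 4 and 450 mOsm with LPS replicate 3. It was also lost without mouse 1, 2 or 4 (adjusted p from 0.0589 to 0.224), with no filter on low values (0.0811) and under median centring (0.0918). The salt effects on Cebpa and Cebpb did not pass as different with and without LPS: the difference was -0.06 ± 0.10 for Cebpa (adjusted p = 0.735 in limma) and -0.07 ± 0.10 for Cebpb (adjusted p = 0.663 in limma). The lower neutrophil marker levels at 450 mOsm ran alongside both salt changes, and their part in them was not tested.

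The start-site regions of Cebpa and Cebpb are shown because these genes moved in opposite directions under LPS. Each is the RefSeq sequence from 250 bases before to 50 bases after the start in GRCm38.p6, 5′ to 3′ on the gene's strand, with capitals for matches to any of the 4 motifs described after them. Cebpa lies at chr7:35119043-35119342 on the plus strand and Cebpb at chr2:167688665-167688964 on the plus strand.
Cebpa: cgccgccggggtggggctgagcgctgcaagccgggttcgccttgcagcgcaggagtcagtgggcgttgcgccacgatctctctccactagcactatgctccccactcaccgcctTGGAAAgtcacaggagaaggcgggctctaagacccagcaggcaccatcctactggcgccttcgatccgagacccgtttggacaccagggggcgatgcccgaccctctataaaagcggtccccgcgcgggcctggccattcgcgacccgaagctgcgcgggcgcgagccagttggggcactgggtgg
Cebpb: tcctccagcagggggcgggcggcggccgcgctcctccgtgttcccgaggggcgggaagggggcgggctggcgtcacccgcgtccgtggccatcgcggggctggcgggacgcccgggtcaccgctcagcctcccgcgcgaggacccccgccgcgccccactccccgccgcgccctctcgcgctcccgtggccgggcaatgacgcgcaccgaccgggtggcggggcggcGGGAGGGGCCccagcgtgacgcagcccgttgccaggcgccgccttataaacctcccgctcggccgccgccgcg
The motifs were searched on both strands: NF-kB as GGGA, any 4 bases and then CC, AP-1 as TGANTCA, C/EBP as TTGCNNAA and NFAT as TGGAAA. Cebpb held 1 NF-kB match beginning at position -23 from the start, and Cebpa held 1 NFAT match beginning at -136. No matches overlapped. Among 32851 such regions, 20.7% held the NF-kB letters, 7.81% the AP-1 letters, 10.8% the C/EBP letters and 21.4% the NFAT letters. RefSeq regions were matched for 8 of the 10 genes, as 10 regions, of which 2 held NF-kB letters, 2 NFAT letters, 1 AP-1 letters and 0 C/EBP letters.

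Cebpe, the factor of late granulocyte maturation, did not pass in any comparison. It read 7.28, 7.40, 7.22 and 7.51 at 450 mOsm with LPS, against 7.41, 7.52, 7.38 and 7.59 at 290 mOsm with LPS. Without LPS it read 7.38, 7.56, 7.30 and 7.33 at 450 mOsm, against 7.42, 7.43, 7.54 and 7.60 at 290 mOsm. All 4 groups overlapped. The salt difference was -0.12 ± 0.07 with LPS (95% interval -0.27 to 0.03, adjusted p = 0.205 in limma) and -0.11 ± 0.07 without LPS (95% interval -0.26 to 0.05, adjusted p = 0.251 in limma).

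Most of a list of neutrophil genes fell with salt, though Cebpe did not pass. The list held 17 granule and other neutrophil genes, several of which, such as the lactoferrin gene Ltf and the granule gene Ngp, need C/EBPε in mouse. Of the 14 tested, 0 rose and 12 fell at 450 mOsm with LPS, with a median of -2.17, and 1 rose and 12 fell without LPS, with a median of -2.28. Ltf, Ly6g, Retnlg and Stfa2 were below 6.83 on every array of both 450 mOsm groups and passed the filter only through the 290 mOsm groups. These 4 therefore had to differ, apart from Stfa2 without LPS. Stfa2 was below 6.83 on every 290 mOsm array without LPS too, so that fall lay wholly under the level. Ngp and Camp were also below it on every 450 mOsm array without LPS. The counts and medians of this list are therefore a description, and falls to levels under 6.83 have no exact size. The medians over all genes were 0.0015 with LPS and 0.0010 without LPS. Of all genes, 16.8% were called higher and 21.8% lower with LPS, and 20.6% higher and 23.7% lower without LPS. Ngp fell by 5.49 ± 0.18 with LPS and fell by 6.03 ± 0.18 without LPS. Ltf fell by 4.54 ± 0.13 with LPS and fell by 4.94 ± 0.13 without LPS. Lcn2, a siderophore-binding protein gene, was an exception with LPS (-0.16 ± 0.15, adjusted p = 0.419 in limma), though it fell by 4.31 ± 0.15 without it. The single rise without LPS was Cybb, an oxidase subunit gene named after its value was seen (0.16 ± 0.04), and under median centring 0 of the 14 rose. The means of Ltf were 6.53 at 450 mOsm with LPS and 6.17 at 450 mOsm, and that of Ngp was 6.27 at 450 mOsm, all under 6.83. Of 16 neutrophil markers tested, 14 fell with LPS and 16 without it, and the lists overlap. That list has the same limit, with 7 of its 17 members below 6.83 on every array of the 450 mOsm group with LPS and 9 without LPS.

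**Figure D2:**
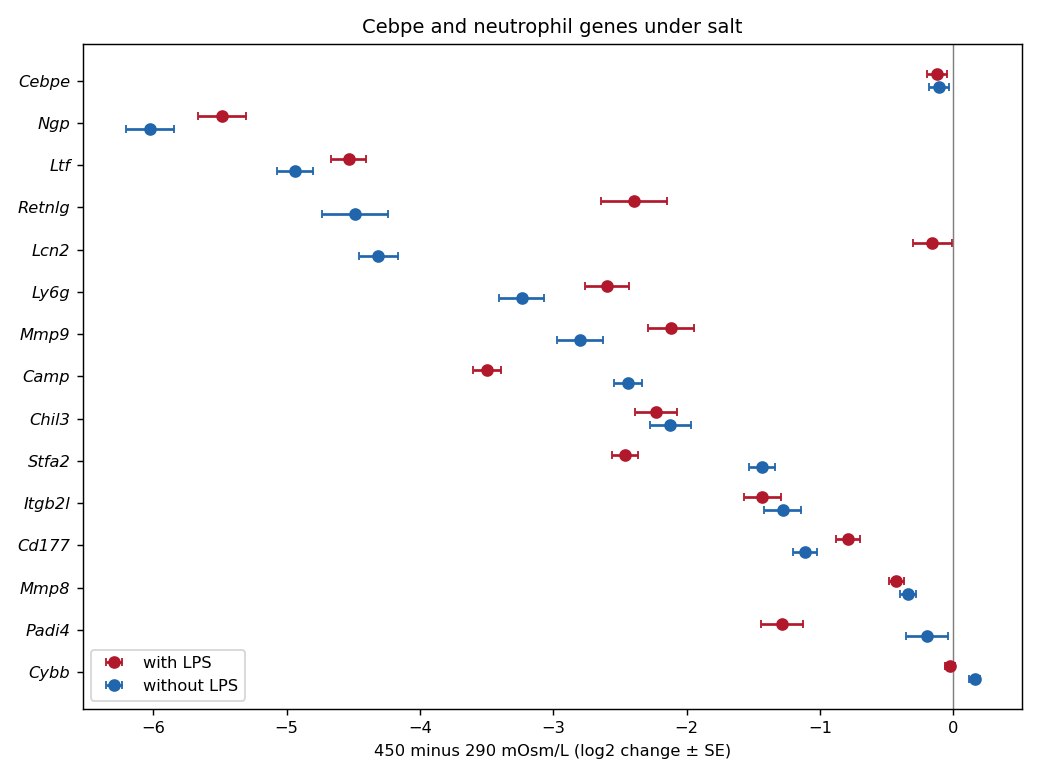
Log2 change at 450 mOsm/L relative to 290 mOsm/L for Cebpe and the 14 tested genes of the neutrophil list, with LPS in red and without LPS in blue; bars are limma standard errors (n = 4 mice per group). Cebpe lies at -0.12 and -0.11, while Ngp lies at -5.49 and -6.03.

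Runx3 was the gene whose salt effect turned round with LPS. It encodes a Runt-domain factor that dendritic cells and lymphocytes use in their response to TGF-β. At 450 mOsm with LPS it read 9.13, 9.11, 8.97 and 9.08, against 8.50, 8.38, 8.45 and 8.42 at 290 mOsm with LPS. Without LPS it read 8.38, 8.48, 8.24 and 8.40 at 450 mOsm, against 8.50, 8.70, 8.62 and 8.85 at 290 mOsm. The groups did not overlap in either comparison, and the order was reversed. Salt raised Runx3 by 0.63 ± 0.07 with LPS (1.55-fold, adjusted p = 1.04e-06 in limma) and lowered it by 0.30 ± 0.07 without LPS (log2 -0.30, adjusted p = 0.00212 in limma), in 4 of 4 mice each time. The difference between these effects was 0.93 ± 0.10 (adjusted p = 2.29e-06 in limma, 21.1% of all genes called), and 2.24% of all genes had one as large in either direction.

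Seen from the LPS side, Runx3 rose by 0.70 ± 0.07 at 450 mOsm (adjusted p = 3.74e-08 in limma). At 290 mOsm it fell by 0.23 ± 0.07 (adjusted p = 0.00515 in limma), in 3 of 4 mice, with the groups overlapping. That fall was not called without mouse 4 (-0.16 ± 0.08, adjusted p = 0.0642), nor under quantile normalization (-0.12, adjusted p = 0.128) or cyclic loess (-0.07, adjusted p = 0.396). The cyclic loess shift of all genes at 290 mOsm was of a similar size, with the median moving to 0.02 from -0.11. Levels in the 290 mOsm, 290 mOsm with LPS and 450 mOsm groups overlapped with their neighbours in rank, and 450 mOsm with LPS stood above all of them.

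Klf4 rose with salt in cells without LPS. It encodes a zinc finger factor of monocytes and of a subset of dendritic cells. Without LPS it read 8.21, 8.12, 7.89 and 8.11 at 450 mOsm, against 7.43, 7.35, 7.55 and 7.60 at 290 mOsm. With LPS it read 7.57, 7.35, 7.29 and 7.26 at 450 mOsm, against 7.30, 7.32, 7.17 and 7.42 at 290 mOsm. The 450 mOsm arrays without LPS stood above every other array, and the other 3 groups overlapped. The salt difference was 0.60 ± 0.08 without LPS (1.52-fold, adjusted p = 1.41e-05 in limma) and 0.06 ± 0.08 with LPS (adjusted p = 0.554 in limma). The difference between these, with LPS minus without, was -0.54 ± 0.11 (adjusted p = 0.00234 in limma), and it was negative in 4 of 4 mice.

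LPS lowered Klf4 at 450 mOsm by 0.71 ± 0.08 (log2 -0.71, adjusted p = 2.72e-07 in limma). At 290 mOsm the change was -0.18 ± 0.08 (adjusted p = 0.0581 in limma). It passed with the mouse as a replicate block (adjusted p = 0.0472) and with only the groups compared in the fit (adjusted p = 0.0376). It also passed without 290 mOsm replicate 2, 290 mOsm with LPS replicate 4, 450 mOsm replicate 3 or 450 mOsm with LPS replicate 1, with adjusted p from 0.0298 to 0.0391.

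The start-site regions of Runx3 and Klf4 are shown because their salt effects depended on LPS, with the same build, window and capitals as before. Klf4 lies at chr4:55532426-55532725 on the minus strand, and Runx3 has 2 RefSeq starts on the plus strand, an upstream one at chr4:135120395-135120694 and a downstream one at chr4:135152295-135152594.
Klf4: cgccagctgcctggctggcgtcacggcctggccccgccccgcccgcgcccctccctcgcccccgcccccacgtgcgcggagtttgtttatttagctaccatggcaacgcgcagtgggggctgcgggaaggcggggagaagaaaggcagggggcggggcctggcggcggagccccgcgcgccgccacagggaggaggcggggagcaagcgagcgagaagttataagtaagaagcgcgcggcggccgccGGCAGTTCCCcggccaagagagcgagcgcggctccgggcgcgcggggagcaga
Runx3, upstream start: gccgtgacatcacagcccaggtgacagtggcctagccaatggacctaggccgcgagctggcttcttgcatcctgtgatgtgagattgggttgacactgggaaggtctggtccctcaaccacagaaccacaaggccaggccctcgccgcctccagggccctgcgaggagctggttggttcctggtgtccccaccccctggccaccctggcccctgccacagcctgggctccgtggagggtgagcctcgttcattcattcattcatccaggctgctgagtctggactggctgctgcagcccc
Runx3, downstream start: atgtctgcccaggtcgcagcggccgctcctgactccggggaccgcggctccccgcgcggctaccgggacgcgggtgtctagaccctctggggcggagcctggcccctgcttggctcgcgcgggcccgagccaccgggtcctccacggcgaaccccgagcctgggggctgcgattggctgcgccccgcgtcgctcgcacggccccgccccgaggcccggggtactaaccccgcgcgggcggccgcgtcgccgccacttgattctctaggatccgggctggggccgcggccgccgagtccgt
Klf4 held 1 NF-kB match beginning at position -3 and running past the start. The 2 Runx3 regions held none of the 4 motifs. The array values were not divided between the Runx3 starts.

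**Figure D3:**
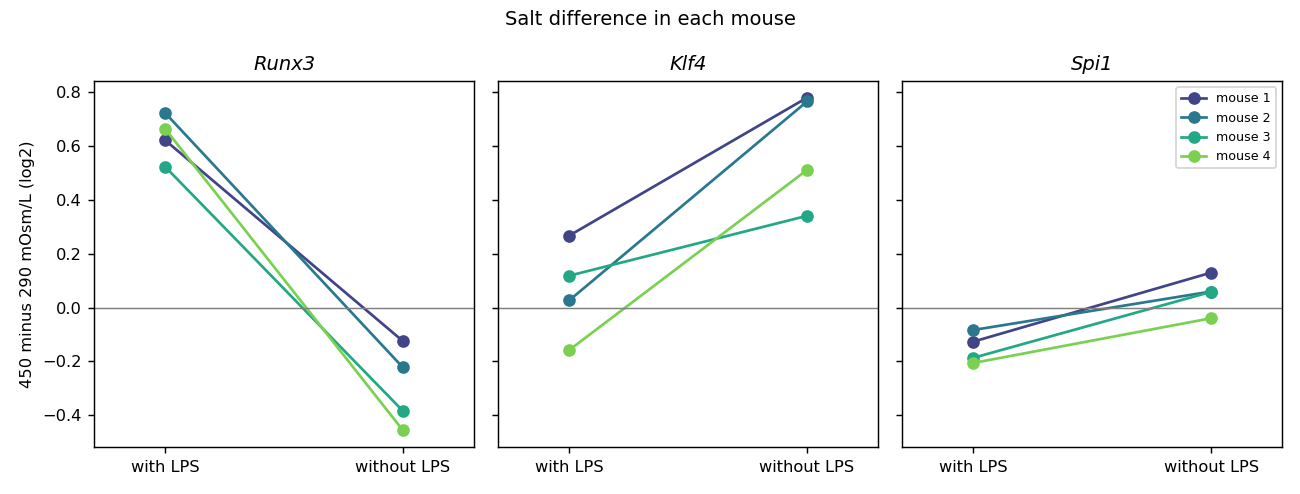
Salt difference (450 minus 290 mOsm/L, log2) within each of the 4 mice for Runx3, Klf4 and Spi1, with LPS on the left and without LPS on the right of each panel. For Runx3 all 4 mice lie between 0.52 and 0.72 with LPS and between -0.46 and -0.12 without it.

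Spi1, which encodes the ETS factor PU.1 needed by all myeloid lineages, was among the genes with small changes. With LPS it read 12.10, 12.11, 12.13 and 12.06 at 450 mOsm, against 12.23, 12.20, 12.32 and 12.27 at 290 mOsm. Without LPS it read 11.99, 11.99, 11.94 and 11.98 at 450 mOsm, against 11.86, 11.93, 11.88 and 12.02 at 290 mOsm. The salt-treated and normal groups were apart with LPS and overlapped without it. Salt lowered Spi1 with LPS by 0.15 ± 0.05 (log2 -0.15, adjusted p = 0.0145 in limma), and the value without LPS was 0.05 ± 0.05 (adjusted p = 0.366 in limma). The difference between these was -0.20 ± 0.06 (adjusted p = 0.0320 in limma).

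LPS raised Spi1 by 0.13 ± 0.05 at 450 mOsm (adjusted p = 0.0158 in limma) and by 0.33 ± 0.05 at 290 mOsm (adjusted p = 2.89e-06 in limma). These calls were unequal in strength. The one at 290 mOsm held in all 31 alternatives, while the one at 450 mOsm was lost without mouse 2 or 3 (adjusted p 0.0637 and 0.0877). Under quantile normalization it was lost as well, with a log2 change of 0.0053 (adjusted p = 0.921 in limma). The fall with salt and LPS was lost without mouse 1, 3 or 4 (adjusted p from 0.0549 to 0.0688) and under cyclic loess (-0.11, adjusted p = 0.0730). The difference between salt effects was lost without any one mouse (adjusted p from 0.0667 to 0.160) and without any of 8 arrays, which were replicates 1 and 3 of 290 mOsm, 3 and 4 of 290 mOsm with LPS, 1 and 2 of 450 mOsm, and 1 and 4 of 450 mOsm with LPS (adjusted p from 0.0541 to 0.0689). Keeping all low values (adjusted p = 0.0927) or median centring (-0.18, adjusted p = 0.0969) lost it as well.

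Of the factors tied to conventional dendritic cells, Zbtb46, Id2 and Bcl6 rose with LPS at both osmolarities, and Batf3 did not pass in any comparison. Zbtb46, a zinc finger gene that marks conventional dendritic cells and their precursors, read 7.47, 7.50, 7.44 and 7.51 at 450 mOsm with LPS, against 6.94, 6.81, 6.87 and 7.06 at 450 mOsm. At 290 mOsm it read 7.48, 7.35, 7.29 and 7.30 with LPS, against 6.68, 6.92, 6.77 and 6.82 without LPS. Every array with LPS was above every array without it. The rise was 0.56 ± 0.06 at both osmolarities (adjusted p = 2.27e-07 at 450 mOsm and 2.25e-07 at 290 mOsm in limma). Of the 4 arrays at 290 mOsm without LPS, 1 exceeded 6.83, so the gene passed the filter largely through the groups where it was high. Salt gave 0.12 ± 0.06 with LPS (adjusted p = 0.127 in limma) and 0.12 ± 0.06 without LPS (adjusted p = 0.114 in limma). The value without LPS passed when mouse 2 was left out (0.20 ± 0.07, adjusted p = 0.0471).

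Id2 encodes a protein that binds E proteins and blocks their contact with DNA, and in mouse the cross-presenting dendritic cells need it. With LPS it read 12.50, 12.44, 12.41 and 12.43 at 450 mOsm, against 12.30, 12.19, 12.29 and 12.26 at 290 mOsm. Without LPS it read 11.96, 12.03, 12.02 and 12.03 at 450 mOsm, against 11.97, 12.06, 11.89 and 12.04 at 290 mOsm. The 450 mOsm group with LPS stood above the 290 mOsm group with LPS, which stood above both groups without LPS, and those overlapped. LPS raised it by 0.44 ± 0.05 at 450 mOsm (adjusted p = 1.27e-07 in limma) and by 0.27 ± 0.05 at 290 mOsm (adjusted p = 4.28e-05 in limma). Salt raised it with LPS by 0.18 ± 0.05 (adjusted p = 0.00477 in limma), and the value without LPS was 0.02 ± 0.05 (adjusted p = 0.763 in limma). The difference between these salt effects was 0.17 ± 0.07 and did not pass (adjusted p = 0.0905 in limma), except without 290 mOsm replicate 3 (adjusted p = 0.0389) and with a trended robust variance (adjusted p = 0.0389).

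Bcl6, a zinc finger repressor gene that supports the same dendritic cells and follicular helper T cells, was called for LPS and not for salt. It read 9.78, 9.88, 9.84 and 9.92 at 450 mOsm with LPS, against 9.39, 9.31, 9.35 and 9.36 at 450 mOsm. At 290 mOsm it read 9.84, 9.77, 9.89 and 10.02 with LPS, against 9.25, 9.27, 9.32 and 9.53 without LPS. The LPS groups stood apart from the groups without LPS at both osmolarities. LPS raised it by 0.50 ± 0.06 at 450 mOsm (adjusted p = 1.01e-06 in limma) and by 0.54 ± 0.06 at 290 mOsm (adjusted p = 4.16e-07 in limma). The salt difference was -0.03 ± 0.06 with LPS (95% interval -0.16 to 0.11) and 0.01 ± 0.06 without LPS (95% interval -0.12 to 0.14).

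Batf3 encodes the leucine zipper factor that cross-presenting dendritic cells require in mouse. It read 7.11, 7.06, 7.08 and 7.29 at 450 mOsm with LPS, against 7.12, 7.22, 7.02 and 7.18 at 290 mOsm with LPS. Without LPS it read 7.21, 7.18, 7.19 and 7.22 at 450 mOsm, against 7.14, 7.30, 7.13 and 7.17 at 290 mOsm. All 4 groups overlapped, and the 4 group means spanned 0.069. The 95% intervals ran from -0.12 to 0.12 for salt with LPS, from -0.11 to 0.14 for salt without LPS, from -0.19 to 0.05 for LPS at 450 mOsm and from -0.18 to 0.07 for LPS at 290 mOsm.

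**Figure D4:**
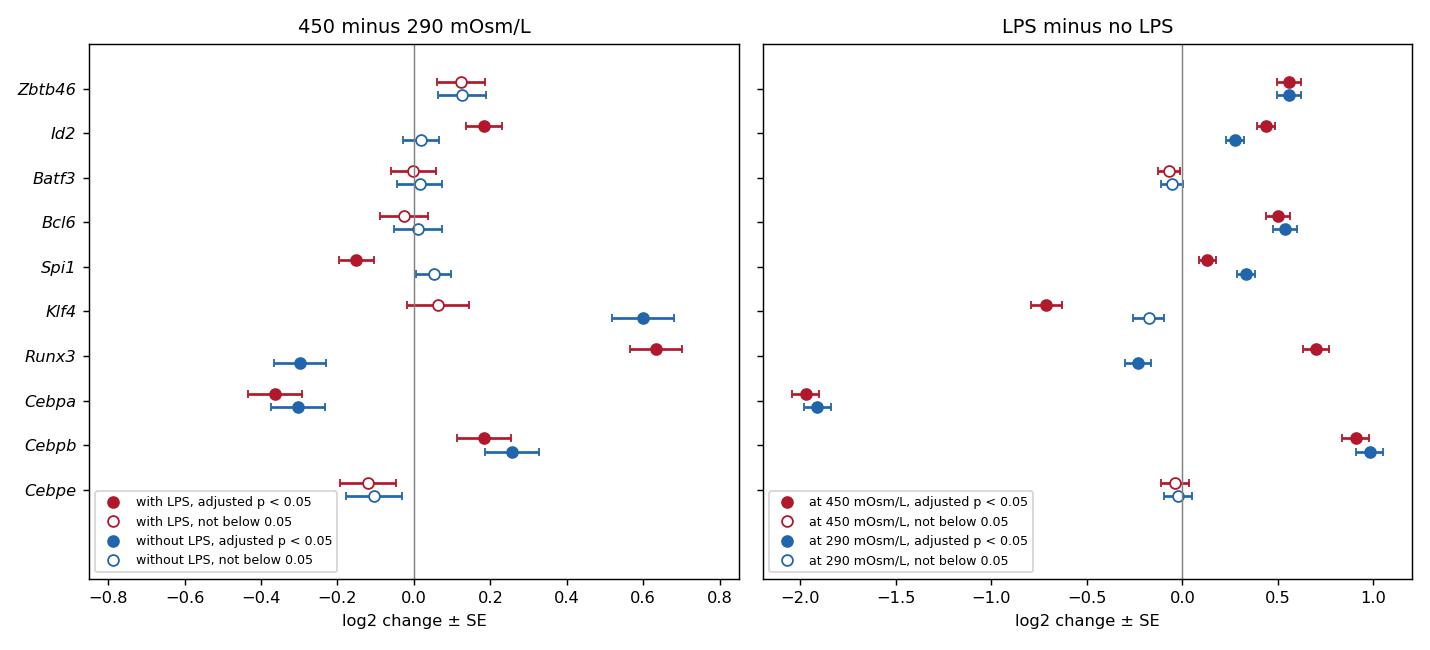
Log2 changes with limma standard errors (n = 4 mice per group) for the 10 genes: 450 minus 290 mOsm/L on the left, with LPS in red and without LPS in blue, and LPS minus no LPS on the right, at 450 mOsm/L in red and at 290 mOsm/L in blue. Filled points have an adjusted p below 0.05; Cebpa has the largest LPS change of the 10 genes (-1.97 and -1.91).

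A wider list of 50 other lineage transcription factor genes gave a background for these changes, of which 45 were tested. LPS raised 27 and lowered 13 of them at 450 mOsm (median 0.30, against -0.09 over all genes), and raised 27 and lowered 15 at 290 mOsm (median 0.49, against -0.11). Across all genes, 26.4% were called higher and 45.3% lower at 450 mOsm, and 26.4% higher and 47.1% lower at 290 mOsm. Gfi1 passed the filter only through the groups with LPS, and Myb and Cebpd only through 290 mOsm with LPS. The counts that hold them are therefore a description. Batf2 and Batf, relatives of Batf3, rose by 2.59 ± 0.09 and 2.35 ± 0.09 at 450 mOsm, and by 2.90 ± 0.09 and 2.31 ± 0.09 at 290 mOsm. The nuclear receptor gene Nr4a3 rose by 2.95 ± 0.19 at 450 mOsm and by 2.09 ± 0.19 at 290 mOsm. The plasmacytoid dendritic cell regulator Tcf4 rose by 1.73 ± 0.07 at 450 mOsm and by 1.69 ± 0.07 at 290 mOsm. Spic, a relative of Spi1, rose by 1.78 ± 0.12 at 450 mOsm and by 1.60 ± 0.12 at 290 mOsm. The GM-CSF signal transducer gene Stat5a rose by 1.70 ± 0.08 at 450 mOsm and by 1.52 ± 0.08 at 290 mOsm. Egr2 fell by 1.54 ± 0.08 at 450 mOsm and by 1.92 ± 0.08 at 290 mOsm. Id3, a relative of Id2, fell by 1.41 ± 0.07 at 450 mOsm and by 1.53 ± 0.07 at 290 mOsm. Stat3 rose by 1.57 ± 0.07 at 450 mOsm and by 1.39 ± 0.07 at 290 mOsm. The ETS gene Fli1 fell by 1.56 ± 0.08 at 450 mOsm and by 0.90 ± 0.08 at 290 mOsm.

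Salt raised 7 and lowered 19 of the 45 with LPS (median -0.13, against 0.0015 over all genes), where 16.8% of all genes were called higher and 21.8% lower. Cyclic loess raised the first count to 11. The homeobox gene Hhex fell by 1.10 ± 0.09, the ETS gene Spic by 0.98 ± 0.12, Nfe2 by 0.94 ± 0.10 and Nr4a1 by 0.93 ± 0.09. Spib, another ETS gene, was also called lower (means of 6.18 at 450 mOsm and 7.17 at 290 mOsm, both with LPS), but it was below 6.83 on every array of both 450 mOsm groups and passed the filter only through the 290 mOsm groups. Myb and Cebpd, also called lower, were below 6.83 on every array outside the 290 mOsm group with LPS. They passed only through that group, so their falls with LPS present were set by the filter. Nfil3, a gene needed for the cross-presenting subset in mouse, rose by 0.88 ± 0.06, Nr4a3 by 0.84 ± 0.19 and Bhlhe40 by 0.82 ± 0.07. Without LPS salt raised 13 and lowered 13 of the 45 (median 0.01, against 0.0010 over all genes), where 20.6% of all genes were called higher and 23.7% lower. Cebpd, among those raised, and Myb, among those lowered, were below 6.83 on every array without LPS, so these calls lay wholly under the level. Egr1 fell by 1.50 ± 0.10, Spic by 1.16 ± 0.12, Egr2 by 1.13 ± 0.08, Id1 by 0.64 ± 0.08 and the repressor gene Prdm1 by 0.61 ± 0.05. Klf2, a relative of Klf4, rose by 0.86 ± 0.07 and Nfil3 by 0.72 ± 0.06. Gata2, a mast cell and progenitor factor, fell by 0.75 ± 0.09, and all 5 tested mast cell and basophil markers, Gata2 among them, fell as well, a shift whose part in it was not tested. Of these, Cpa3, Mcpt8 and Hdc were below 6.83 on every 450 mOsm array without LPS. Cpa3 and Mcpt8 were below it at 450 mOsm with LPS as well. Cpa3 and Mcpt8 thus passed the filter only through the 290 mOsm groups, so the filter itself favoured their falls with salt. Hdc was not below 6.83 on every array at 450 mOsm with LPS. The difference between the salt effects passed for 21 of the 45, 8 higher and 13 lower, where 21.1% of all genes were called, 10.7% higher and 10.4% lower. Myb and Cebpd, with the limit given above, were among the 13 lower. Klf2, Ikzf1 and Fli1 were called for salt both ways, higher without LPS and lower with it, the reverse of Runx3. Their changes without and with LPS were 0.86 and -0.18 for Klf2, 0.31 and -0.22 for Ikzf1, and 0.31 and -0.35 for Fli1. Cebpd did the same, at levels under 6.83 in most groups.

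**Figure D5:**
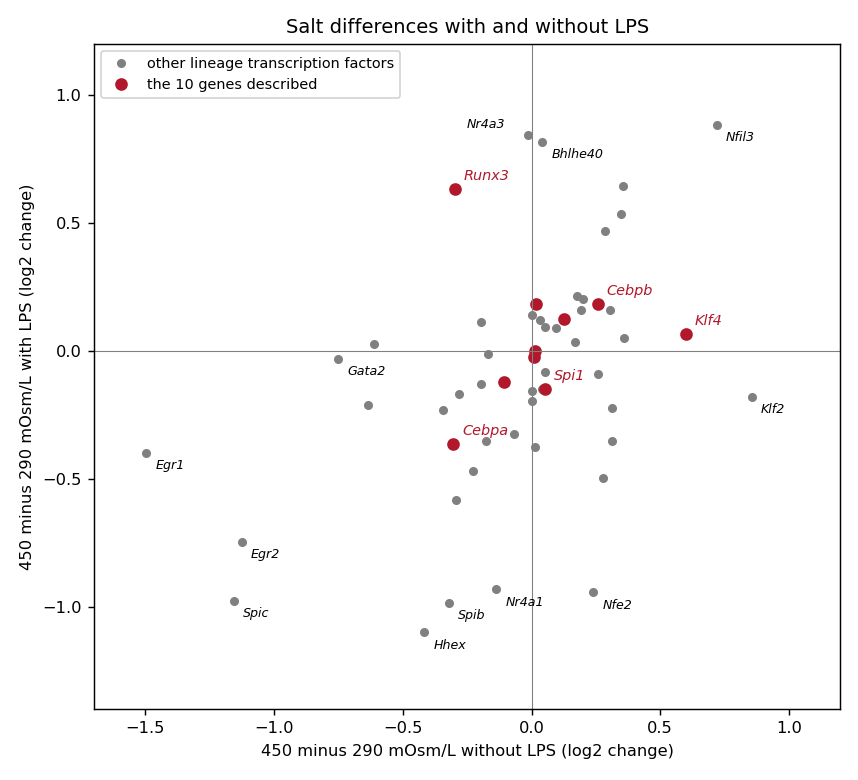
Log2 change at 450 relative to 290 mOsm/L without LPS (horizontal) and with LPS (vertical) for the 10 genes (red) and 45 other lineage transcription factor genes (grey). Runx3 is the red point at -0.30 and 0.63, and Klf4 the one at 0.60 and 0.06. The most distant grey points are named.

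Markers of other cells moved as follows. Over all genes, 16.8% were called higher and 21.8% lower for salt with LPS, and 20.6% higher and 23.7% lower without LPS. For LPS, 26.4% were called higher and 45.3% lower at 450 mOsm, and 26.4% higher and 47.1% lower at 290 mOsm. Of 11 tested macrophage markers, salt raised 0 and lowered 8 with LPS, and raised 1 and lowered 6 without it. Of 6 tested monocyte markers, it raised 2 and lowered 2 with LPS, and raised 3 and lowered 1 without LPS, the condition in which Klf4 rose. The monocyte marker Ace was below 6.83 on every array of both 290 mOsm groups and passed the filter only through the 450 mOsm groups. The monocyte markers averaged 7.89 to 8.18 per array at 450 mOsm with LPS, against 8.22 to 8.47 at 290 mOsm with LPS, and 8.18 to 8.50 at 450 mOsm, against 7.51 to 7.73 at 290 mOsm. Their part in the Klf4 result was not tested. Of 12 tested conventional dendritic cell markers, salt raised 4 and lowered 2 with LPS and raised 3 and lowered 4 without it. LPS raised 5 and lowered 5 of those 12 at 450 mOsm and raised 6 and lowered 4 at 290 mOsm, alongside the rise of Zbtb46. Flt3 passed the filter only through 290 mOsm with LPS, and Kit only through the groups with LPS. For 5 tested markers of the cross-presenting subset, salt raised 1 and lowered 2 with LPS and raised 2 and lowered 1 without it. For 6 tested markers of the other conventional subset, salt raised 3 and lowered 1 with LPS and raised 4 and lowered 1 without it. Clec10a, among those raised, was below 6.83 on every array of both 290 mOsm groups. It passed the filter only through the 450 mOsm groups, so its rise was set by the filter. For 6 tested plasmacytoid markers, it raised 2 with LPS and 3 without it and lowered 0 in either.

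The genes whose levels ran most like each of the 10 over the 16 arrays are given as a description, since the group differences that the arrays share produce high correlations for many genes. Cebpa ran closest to the integrin gene Itgb5 (Pearson's r = 0.997), the nucleoside transporter gene Slc29a1 (0.996) and Mical1 (0.994). Cebpb ran closest to the kinase gene Pim1 (0.991), Trp53i11 (0.988) and Clmp (0.987). Runx3 ran closest to the glucose transporter gene Slc2a1 (0.951), the AP-1 gene Fosl1 (0.932) and the lipid droplet gene Hilpda (0.924). Klf4 ran closest to Mtmr3 (0.957), Mboat1 (0.956) and Ubac2 (0.952). Zbtb46 ran closest to the endocytic receptor gene Ly75 (0.981), Rhof (0.979) and H2-T10 (0.977). Id2 ran closest to the activin subunit gene Inhba (0.985), Cdc42ep2 (0.978) and Mdm2 (0.978). Bcl6 ran closest to the copper transporter gene Slc31a2 (0.985), Stau1 (0.979) and Vps37c (0.978). Spi1 ran closest to Wnk2 (0.967), the integrin gene Itgal (0.962) and Fbrs (0.960). Batf3 and Cebpe had weaker partners, led by Bcr (0.722) and Atxn1l (0.733).

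Slc2a1 shows what such a match looks like in the data. Its group means were 12.62 at 450 mOsm with LPS, against 11.44 at 290 mOsm with LPS, and 11.45 at 450 mOsm, against 11.96 at 290 mOsm. Like Runx3, it was higher with salt in the presence of LPS and lower without it.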

How the data were processed

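The analysis began from the deposited series table, whose log2 values, 1 per probe set and array, were made by the authors with RMA and the oligo package, as named in the submitters' processing notes. No source used here gives versions, filters or a build. RMA works on relative signal, so a shift shared by most transcripts is not seen. Of 22549 probe sets, the annotation gives 1 symbol for 20646, several for 551 and none for 1352. Probe sets above 6.83 on 4 or more arrays were retained. The single-symbol probe set with the highest mean stood for each gene, leaving 10236 genes.

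limma 3.58.1 in R 4.3.3 fitted 1 mean per group, with two-sided contrasts for salt, LPS and their interaction and Benjamini-Hochberg adjustment. The genes, lists, motifs and tests were chosen with earlier results of these data known. Besides the 10 genes, the text names the 3 genes of highest Pearson's r for each, up to 8 called factors of the wider list per contrast, up to 4 neutrophil genes, and markers. Factors named for LPS at either osmolarity are given at both. Further list members are named where the filter limits them or where a called salt effect turned round with LPS. Simulated arrays held 10236 genes with independent noise, of which 200 were changed for each comparison. On them the fit recovered 92.5% of log2 changes of 0.5 for salt with and without LPS. It recovered 97% for LPS at 450 mOsm, 94% at 290 mOsm and 79.1% for the interaction. Of changes of 0.25 it recovered 52.2% for salt with LPS, 50.7% without LPS, 34.3% for LPS at 450 mOsm, 40.3% at 290 mOsm and 20.9% for the interaction. False calls made up 4.29% to 7.64% of the calls. Far more genes were called in the data than were changed in the simulation, so these rates do not carry over to the data. The number of arrays limits the precision.

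Replicate numbers pair the samples, since the labels give 1 mouse per number. Deviations from group means correlated with a median r of 0.0953 for arrays of 1 mouse (-0.146 to 0.433, 24 pairs) and -0.0351 for different mice (72 pairs). Alternatives were the mouse as a replicate block, other filters, probe set rules, scalings and variance models, the compared groups alone, and leaving out each mouse or array. Figures were drawn with matplotlib 3.10.9.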

Additional observations from a re-analysis of the deposited data

Results flagged for a closer look

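The difference of the salt effects with and without LPS was itself past the threshold for 3 of the 10 genes. For Runx3 it was 0.93 (adjusted p = 2.29e-06 in limma), for Klf4 -0.54 (adjusted p = 0.00234 in limma) and for Spi1 -0.20 (adjusted p = 0.0320 in limma), each with 1 sign in 4 of 4 mice. No array stood apart from the other 3 of its group for any of the 10 genes by Dixon's criterion (0 of 40 sets of 4 arrays).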

How the results depend on the processing

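Of 1833 recalculated values, 1705 kept their direction and their side of the threshold, 39 lost a call and 10 gained one, 76 turned direction and 3 counts moved by over 1.5 times. Of the 76, 0 concerned a comparison in which the gene had been called. With the mouse as a replicate block, Klf4 under LPS at 290 mOsm passed (-0.18, adjusted p = 0.0472), and no other call among the 10 genes changed. Leaving out a mouse or an array gave 3 to 5 of the 10 genes called for salt with LPS (3 without mouse 1 and 3 without mouse 4) and 1351 to 2259 of all genes called for the interaction (1351 without mouse 2).

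Median centring gave, for salt without LPS, -0.037 for Id2, -0.0038 for Spi1, -0.041 for Batf3 and -0.045 for Bcl6. It gave 0.0017 for Cebpe under LPS at 290 mOsm and 0.0095 at 450 mOsm, and 0.022 for Zbtb46, 0.0070 for Batf3 and 0.0078 for Cebpe in the interaction. Quantile normalization gave -0.0060 for Batf3 for salt without LPS, 0.014 for Bcl6 for salt with LPS, 0.042 for Batf3 and 0.12 for Cebpe under LPS at 290 mOsm, 0.034 and 0.088 for these at 450 mOsm, and 0.062 for Zbtb46 in the interaction. Cyclic loess gave -0.038 for Batf3 for salt without LPS, 0.018 for Bcl6 for salt with LPS, 0.040 for Batf3 and 0.10 for Cebpe under LPS at 290 mOsm, 0.027 and 0.082 for these at 450 mOsm, and 0.0032 for Zbtb46 in the interaction. Array weights gave -0.0057 for Bcl6 for salt without LPS and 0.054 for Zbtb46 in the interaction. The cause was not tested.

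Over the 20 fits without a mouse or an array, salt without LPS ran from -0.017 to 0.041 for Id2, -0.0044 to 0.060 for Batf3 and -0.032 to 0.072 for Bcl6. Salt with LPS ran from -0.052 to 0.053 for Batf3, -0.068 to 0.020 for Bcl6 and -0.0040 to 0.14 for Klf4. LPS ran for Cebpe from -0.061 to 0.024 at 290 mOsm and from -0.11 to 0.017 at 450 mOsm. The interaction ran from -0.086 to 0.093 for Zbtb46, -0.067 to 0.012 for Batf3, -0.098 to 0.018 for Bcl6, -0.13 to 0.013 for Cebpb and -0.082 to 0.062 for Cebpe.

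The stricter filter left 7 of the 10 genes and dropped Zbtb46, Batf3 and Cebpe. Among counts for lists, chosen for recalculation after seeing the data, quantile normalization gave 4 neutrophil list genes and 7 neutrophil markers higher in the interaction, against 2 and 4, the replicate block gave 4 against the 2, and neutrophil markers lower under LPS at 450 mOsm were 1 against 2 under median centring, cyclic loess and without 450 mOsm replicate 4. The cause was not tested.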
